A study of Mus musculus with 35 samples.

Results

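The core proteins of matrix proteoglycans were examined as 10 genes, *Dcn*, *Lum*, *Bgn*, *Fmod*, *Prelp*, *Ogn*, *Aspn*, *Vcan*, *Hspg2* and *Agrn*, taken as the rows of the deposited count table that carry these gene names. Each name matched a single row, so 10 of 53465 genes are described. RNA-seq had been made from mKate2-positive tumor cells sorted by FACS from pancreatic tumors after orthotopic injection, from liver metastases after intrasplenic injection and from lung metastases after tail-vein injection, in 35 libraries and 12 groups of organ, day and *Smad4* label. All groups held KC-shSmad4 cells, mouse PDAC cells from a model driven by the pancreatic Ptf1a-Cre, with a constitutive mKate2 reporter and a doxycycline (Dox)-inducible, GFP-linked shRNA against *Smad4*, grown in athymic nude mice that lack T cells. All hosts received Dox chow, which silences *Smad4*. In the groups labelled Smad4OFF Dox was continued, and in those labelled Smad4ON it had been withdrawn 7 or 14 days before sampling. On day 7 the pancreas had 3 libraries labelled off and 2 labelled on, the liver 2 and 3, and the lungs 4 and 2. On day 14 the pancreas had 2 and 3, the liver 3 and 3, and the lungs 4 and 4. Hosts were females of 6 to 8 weeks when used for transplantation, and which tumor-derived line each library came from is not given in the labels.

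Proteoglycans are proteins that carry glycosaminoglycan chains. Decorin (*Dcn*), biglycan (*Bgn*), lumican (*Lum*), fibromodulin (*Fmod*), *Prelp*, osteoglycin (*Ogn*) and asporin (*Aspn*) are small leucine-rich repeat proteins that bind collagen fibrils, several of which also bind TGFβ, and fibroblasts are their best known source. Versican (*Vcan*) is a large chondroitin sulfate proteoglycan that binds hyaluronan, whereas perlecan (*Hspg2*) and agrin (*Agrn*) carry heparan sulfate and sit in basement membranes, which epithelial and endothelial cells also make. In pancreatic cancer the small leucine-rich proteins are known as components of the dense stroma around the tumor cells.

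Library totals ran from 11885461 to 43571007 counts, so that 3 counts, the smallest number taken as detected, corresponded to 0.0689 to 0.252 CPM (counts in 1000000 counts of the library), a floor that covers counting error only. No member fell under 3 counts in any library. *Smad4* mRNA stood at 77.9 to 132 CPM in the 18 libraries labelled off and at 14.4 to 23.2 CPM in the 17 labelled on, which is opposite to what the labels state. The labels are kept as names only, and every difference is given as labelled on minus labelled off. A liver library labelled off on day 7 (replicate 2), labelled paired-end whereas the others are single-end, correlated more closely over all expressed genes with the pancreas libraries (median r = 0.952) than with the other liver libraries (median r = 0.83). It held 30343 CPM of 12 fibroblast markers and 369 CPM of 8 acinar markers, where the pancreas libraries held 8589 to 23287 and 811 to 3652 CPM. Calls by edgeR of the liver labelled off against another organ, or between labels on day 7, are given with and without it. DESeq2 calls, the other alternative fits, liver correlations and liver levels per kilobase include it, as does the interaction of day 7 unless stated. The labels do not say that replicates came from separate experiments, and P values measure only the spread between these libraries.

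The genes lie in GRCm38 as small clusters and single loci. *Dcn* (ENSMUSG00000019929, chromosome 10, 97479609 to 97518143) and *Lum* (ENSMUSG00000036446, chromosome 10, 97565128 to 97572703) are neighbors on the plus strand, 47.0 kb apart with 0 annotated genes between them. *Prelp* (ENSMUSG00000041577, chromosome 1, 133910304 to 133921414) and *Fmod* (ENSMUSG00000041559, chromosome 1, 134037254 to 134048277) lie 116 kb apart on opposite strands, with 2 genes between them. *Aspn* (ENSMUSG00000021388, chromosome 13, 49544443 to 49567565) and *Ogn* (ENSMUSG00000021390, chromosome 13, 49608046 to 49624501) are separated by 40.5 kb and by *Omd*, another gene of the family. Both lie within *Cenpp* on the opposite strand, whose summed counts were 22.3% of those of *Aspn* and 14.2% of those of *Ogn*. The strand setting of the counting is not given in the sources used here, so reads of overlapping genes on opposite strands may not be separable. *Bgn* (ENSMUSG00000031375) is on chromosome X, 73483602 to 73495933, and *Vcan* (ENSMUSG00000021614) on chromosome 13, 89655312 to 89742509. *Hspg2* (ENSMUSG00000028763) and *Agrn* (ENSMUSG00000041936) are on chromosome 4, at 137468769 to 137570630 and 156165290 to 156197488.

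Promoters were read from RefSeq on GRCm38.p6 for the 8 members that matched the table, and 4 windows are shown because they set both members called between labels, *Fmod* and *Ogn*, beside both basement membrane members. Capitals mark, on either strand, the Smad-binding pentamer CAGAC, the GC box GGGCGG and the TATA box TATAAA, and adjoining matches may overlap. Each sequence is the 250 bases before the start site, from 5′ to 3′ on the gene's strand.
Fmod, plus strand, chr1:134037004-134037253: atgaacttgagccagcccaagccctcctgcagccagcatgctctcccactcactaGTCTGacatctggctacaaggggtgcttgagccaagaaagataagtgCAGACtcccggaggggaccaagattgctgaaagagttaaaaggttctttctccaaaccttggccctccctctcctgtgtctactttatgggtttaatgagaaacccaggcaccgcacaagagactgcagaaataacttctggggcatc
Ogn, plus strand, chr13:49607765-49608014: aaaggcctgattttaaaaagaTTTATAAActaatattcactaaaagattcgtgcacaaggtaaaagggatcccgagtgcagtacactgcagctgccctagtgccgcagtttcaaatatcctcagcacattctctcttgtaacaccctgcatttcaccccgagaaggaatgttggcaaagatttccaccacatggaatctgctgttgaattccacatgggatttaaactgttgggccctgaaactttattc
Hspg2, plus strand, chr4:137468553-137468802: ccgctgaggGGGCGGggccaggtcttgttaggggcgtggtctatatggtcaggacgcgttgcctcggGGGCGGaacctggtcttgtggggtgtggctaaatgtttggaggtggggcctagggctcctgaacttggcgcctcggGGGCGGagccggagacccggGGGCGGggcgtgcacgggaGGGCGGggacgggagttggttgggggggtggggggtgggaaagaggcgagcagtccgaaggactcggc
Agrn, minus strand, chr4:156197489-156197738: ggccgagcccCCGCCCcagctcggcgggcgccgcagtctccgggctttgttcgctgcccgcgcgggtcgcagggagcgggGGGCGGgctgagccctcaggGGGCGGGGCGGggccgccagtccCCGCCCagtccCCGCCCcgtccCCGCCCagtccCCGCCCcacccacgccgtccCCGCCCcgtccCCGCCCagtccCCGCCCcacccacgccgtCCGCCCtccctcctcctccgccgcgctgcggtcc
The windows of *Hspg2* and *Agrn* held 5 and 12 GC boxes at a GC content of 70.0% and 83.6%, against a median of 52.4% over 32851 promoters, of which 32.7% held a GC box. A second annotated start of *Agrn* (chr4:156186260-156186509), within the gene, had 2 GC boxes at 60.8% GC, and the windows of *Bgn* and *Vcan* held 3 and 2 at 64.4% and 62.4%. Those of *Ogn* and *Aspn* held 2 matches to the TATA box each (12.4% of promoters hold this motif). In *Ogn* both matches fall in a single stretch, read on opposite strands. All lay nearer the 5′ end of the window than the start site. *Fmod* held 2 Smad-binding pentamers and *Prelp* 1, and 42.2% of promoters hold this pentamer. These matches describe the letters of the windows only.

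The small leucine-rich members were abundant in the pancreatic tumors and low in both metastases, whereas *Agrn* was nearly level. The 7 small leucine-rich genes summed to 3325 to 8846 CPM in the 10 pancreas libraries (median 5753), to 68.3 to 2006 CPM in the 10 single-end liver libraries (median 251) and to 24.9 to 359 CPM in the 14 lung libraries (median 118). The paired-end liver library held 5243 CPM, within the pancreas range. All 10 members together made up 0.439% to 1.07% of the counts of a pancreas library and 0.101% to 0.18% of those of a lung library. Over all 35 libraries the highest level exceeded the lowest 3288-fold for *Lum*, 667-fold for *Dcn* and 467-fold for *Bgn*, but 5.82-fold for *Hspg2* and 3.52-fold for *Agrn*. The highest *Hspg2* level, 1876 CPM, was that of the paired-end library, and the next highest was 1307 CPM in a pancreas library.

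**Figure D1:**
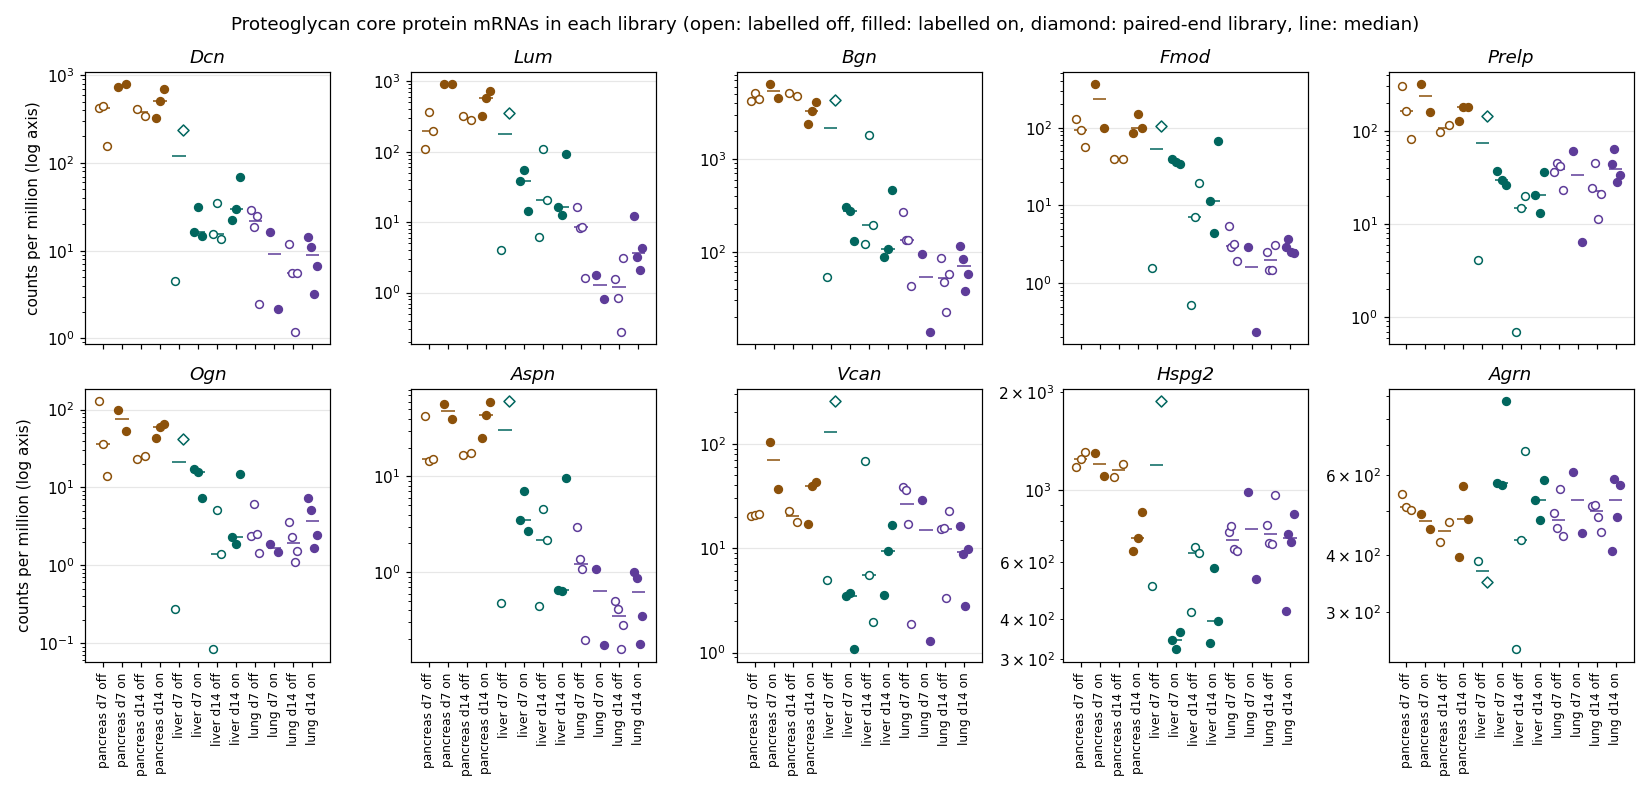
Level of each of the 10 core protein genes in every library, in CPM on a log axis, by organ, day and label, with open points for libraries labelled off, filled points for those labelled on, a diamond for the paired-end liver library and a line at the group median. The small leucine-rich genes stand highest in the pancreas, while *Agrn* runs from 248 to 873 CPM over all organs.

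*Bgn*, which binds collagen and TGFβ, was the most abundant member in the pancreas, at 2402, 4452 and 6374 CPM (lowest, median and highest of 10 libraries). *Dcn*, its close relative, stood at 154, 431 and 788 CPM there, and *Lum*, which organizes collagen fibril spacing, at 108, 342 and 906 CPM. In the lungs the same quantities over 14 libraries were 13.7, 71.0 and 267 CPM for *Bgn*, 1.18, 8.95 and 28.7 CPM for *Dcn* and 0.275, 2.57 and 16.6 CPM for *Lum*. No lung library reached the lowest pancreas library for any of these 3 genes, and the share of all genes for which this holds is not given here. *Prelp*, a basement membrane anchor, kept closer, with 6.39 to 63.8 CPM in the lungs and 82.2 to 314 CPM in the pancreas. *Vcan* overlapped between all organs, at 17.0 to 104 CPM in the pancreas, 1.29 to 38.4 CPM in the lungs and 1.07 to 254 CPM in the liver. The 254 CPM was the paired-end library, without which the highest liver value was 68.4 CPM.

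Per kilobase of the transcript length given in the count table, the order of the members also differed by organ. In the pancreas the median levels per kilobase were 730 CPM for *Bgn*, 140 for *Lum*, 79.5 for *Hspg2*, 73.8 for *Dcn*, 52.4 for *Agrn*, 44.0 for *Prelp*, 28.8 for *Fmod*, 18.7 for *Ogn*, 13.7 for *Aspn* and 1.51 for *Vcan*. *Bgn* exceeded *Lum* in 10 of 10 libraries, but *Hspg2* exceeded *Dcn* in only 5 of 10, so that this pair had no order. In the lungs *Agrn* and *Hspg2* led, at 53.0 and 49.8 CPM per kilobase (*Agrn* higher in 11 of 14 libraries), followed by *Bgn* at 11.6 and *Prelp* at 9.50, and the other 6 members had medians of 0.194 to 1.53. In the liver *Agrn* led at 57.1 CPM per kilobase, *Bgn* and *Hspg2* followed at 31.8 and 29.4 with no order between them (5 of 11 libraries), and the other 7 had medians of 0.34 to 8.33. The single transcript length per gene does not follow isoform use.

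The first question was how the core protein mRNAs differ between the sites of growth at one *Smad4* label. Each label was fitted over the 3 organs with day as a covariate, and a gene was called at an adjusted P value under 0.05 and a fold change over 2 (edgeR quasi-likelihood test, Benjamini-Hochberg adjustment over all genes tested). Between lungs and pancreas, 7 of 10 members were lower in the lungs with the label off and 8 with the label on, 0 were higher, and the median log2 difference over the members was -4.28 and -5.07, beside -0.01 and 0.04 over all genes tested. Over all genes 18.4% and 13.6% were called in these comparisons in either direction. Injection route and organ cannot be told apart here. Neither can the time from injection to Dox withdrawal, which the paper's methods give as different for each route. In bulk samples fewer cells of a type and less RNA per cell cannot be told apart.

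The largest lung differences were those of *Lum*, with a log2 fold change of -6.34 (SE 0.98, adjusted P = 0.000212 by edgeR) with the label off and -7.48 (SE 0.77, 1.16e-05) with the label on. *Bgn* differed by -5.94 (SE 0.84) and -5.94 (SE 0.59), and *Dcn* by -5.33 (SE 0.79) and -6.15 (SE 0.56). *Aspn*, which competes with decorin for collagen, differed by -5.13 and -6.19, *Fmod*, which shapes collagen cross-linking, by -4.60 and -5.92, and *Ogn* by -3.95 and -4.21, all called. *Prelp* was called at a smaller difference, -2.27 (SE 0.70) and -2.27 (SE 0.42), and the call with the label off ended without a filter on low counts (adjusted P = 0.0678 by edgeR) or without replicate 2 of the pancreas on day 14 (0.0603). *Vcan* was called lower with the label on (-2.16, SE 0.73, adjusted P = 0.038 by edgeR) and stood at -0.31 (SE 0.86) with the label off. The call of *Vcan* ended with a term added for the 10 libraries in which *mt-Co3* had counts (adjusted P = 0.0604), without a filter (0.107), in the single fit of all 12 groups (0.0966) and in 8 of 17 fits that left out 1 library (up to 0.147 by edgeR). Those were the fits without either pancreas library of day 7, without pancreas replicate 2 or 3 or lung replicate 2, 3 or 4 of day 14, and without lung replicate 2 of day 7. The libraries with *mt-Co3* counts all came from the liver or lungs, so that term partly overlaps with organ. In the lungs these libraries held 24.9 to 108 CPM of the 7 small leucine-rich genes, against 102 to 359 CPM in the other lung libraries. That difference was not tested. The basement membrane members were not called: *Hspg2* stood at -0.79 (SE 0.29, adjusted P = 0.0425, under 2-fold) and -0.38 (SE 0.23), and *Agrn* at -0.15 (SE 0.15) and 0.13 (SE 0.16). Whether *Vcan* or *Hspg2* differed between labels in this contrast was not tested. Leaving out 1 library at a time left 6 or 7 members called with the label off and 7 or 8 with the label on.

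Between liver and pancreas, 9 of 10 members were lower in the liver with the label on, where 22.2% of all genes were called, and 1 with the label off, where 8.68% were. With the label on, *Dcn* differed by -4.29 (SE 0.52, adjusted P = 1.1e-05 by edgeR), *Bgn* by -4.12 (SE 0.54), *Lum* by -4.12 (SE 0.65), *Aspn* by -3.47, *Vcan* by -2.91, *Prelp* by -2.79, *Ogn* by -2.72 and *Fmod* by -2.25. *Hspg2* was also called, at -1.19 (SE 0.22), whereas *Agrn* stood at 0.37 (SE 0.16, adjusted P = 0.075). The 9 calls were made again in each of the 17 fits that left out 1 library. With the label off only *Dcn* was called, at -2.81 (SE 0.87, adjusted P = 0.0387). That count rests on single libraries. It was 7 without the paired-end library, where 15.3% of all genes were called, and 0 in 8 of the 18 fits that left out 1 library, namely without pancreas replicate 2, liver replicate 1 or lung replicate 3 of day 7, and without either pancreas library or any of the 3 liver libraries of day 14. Without the paired-end library *Dcn*, *Bgn*, *Fmod*, *Prelp*, *Ogn*, *Aspn* and *Hspg2* were called, at -4.16, -2.94, -3.09, -3.81, -4.47, -3.08 and -1.16.

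Between liver and lungs, 5 of 10 members were higher in the liver with the label on and 4 with the label off, where 10.3% and 3.95% of all genes were called. With the label on these were *Fmod* (3.67, SE 0.65), *Lum* (3.37, SE 0.65), *Aspn* (2.72, SE 0.67), *Dcn* (1.86, SE 0.47) and *Bgn* (1.82, SE 0.49), with adjusted P values of 0.00123 to 0.016 by edgeR, and the count was 3 (10.4% of all genes) without replicate 3 of the liver on day 14. *Hspg2* went the other way, at -0.81 (SE 0.22, adjusted P = 0.0149), under 2-fold. *Prelp* was not called with either label (-0.52, SE 0.40 and 0.18, SE 0.73), and neither was *Agrn* (0.24, SE 0.15 and -0.11, SE 0.15). With the label off *Lum*, *Bgn*, *Aspn* and *Fmod* were called at 4.70, 4.02, 3.97 and 3.19, but 0 of 10 members were called by edgeR without the paired-end library (4.18% of all genes), when the values were 3.32, 2.82, 1.70 and 1.61.

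**Figure D2:**
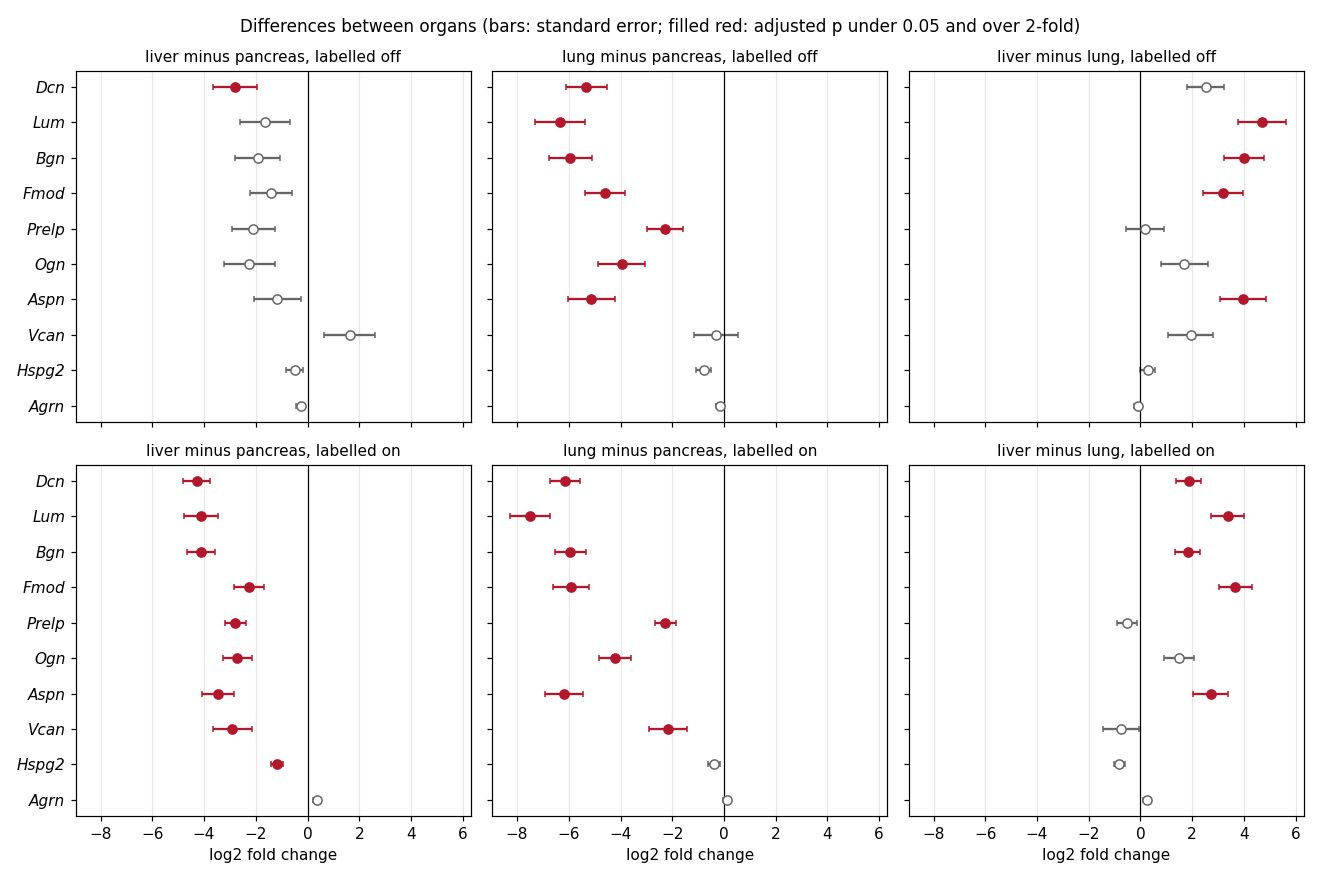
Log2 fold changes of the 10 genes between organs, for libraries labelled off (top) and on (bottom), with standard errors, filled red where the gene was called. *Agrn* lies between -0.26 and 0.37 in all 6 comparisons, while *Dcn* reaches -6.15 in the lungs. The liver values labelled off include the paired-end library.

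Fibroblast markers moved with the small leucine-rich genes across organs. The 12 markers summed to 8589 to 23287 CPM in the pancreas, 156 to 2219 CPM in the lungs and 220 to 4142 CPM in the single-end liver libraries. *Col3a1* and *Col1a1* had the highest medians, no fibroblast marker other than *Clec3b* was at 0 counts in any library, and *Clec3b* was at 0 in 2. In the tests, 10 of the 12 fibroblast markers were lower in the lungs than in the pancreas with either label, and in the liver 10 were lower with the label on and 1 with the label off (7 without the paired-end library). The exceptions that were higher numbered 1 and 2 in the lungs with the label off and on, and 1 in the liver. Acinar markers, at 811 to 3652 CPM in the pancreas and 2.98 to 13.7 CPM in the lungs, were lower in 8 of 8. Endothelial markers were higher in the lungs than in the pancreas in 4 of 8 and 5 of 8 with the label off and on, and ran from 36.9 to 106 CPM there. With the label off and without the paired-end library, 7 of 8 were lower in the liver than in the pancreas. In the same fit 6 of 7 tested hepatocyte markers were higher in the liver than in the pancreas, and 5 of 6 lung epithelial markers in the lungs. Mural, mesothelial and leukocyte markers were called in both directions in the lungs in that fit. Ductal epithelial markers, keratins and other epithelial genes that PDAC cells also express, went the opposite way to the fibroblast markers. The 8 of them summed to 2744 to 8418 CPM in the pancreas, 7193 to 14021 CPM in the lungs and 3452 to 17960 CPM in the liver, where the lowest was the paired-end library. With the label off and on, 4 and 2 of 8 were higher in the lungs than in the pancreas, 5 (7 without the paired-end library) and 7 of 8 were higher in the liver, and 0 were lower. The part of these cells in the differences was not tested.

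As a description over the 35 libraries, which share organ and sort, Spearman's rho of log2 CPM with the fibroblast sum was 0.864 for *Dcn*, 0.895 for *Lum*, 0.897 for *Bgn* and 0.906 for *Aspn*, against 0.606 for *Hspg2* and -0.04 for *Agrn*. Within organs, which hold fewer libraries, rho for *Bgn* was 0.188 over 10 pancreas libraries, 0.882 over 11 liver libraries and 0.798 over 14 lung libraries. For *Dcn* it was 0.685, 0.664 and 0.741. *Vcan* followed the sum in the pancreas (0.758) and lungs (0.701) but not in the liver (0.227).

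**Figure D3:**
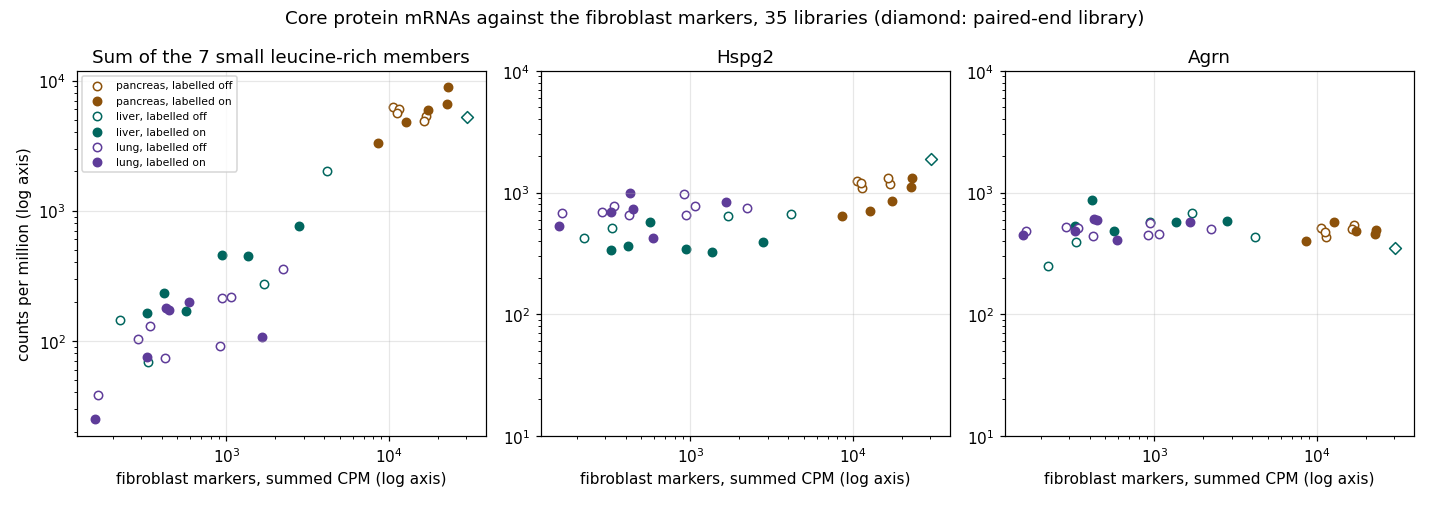
Sum of the 7 small leucine-rich genes (left), *Hspg2* (middle) and *Agrn* (right) against the summed fibroblast markers in 35 libraries, all in CPM on log axes, with open points for the label off, filled points for the label on and a diamond for the paired-end liver library. The left panel rises from 24.9 to 8846 CPM along the marker sum, whereas *Agrn* stays between 248 and 873 CPM.

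Across all libraries the small leucine-rich genes moved closely together, but *Bgn* did not follow the others within the pancreas. Over their 21 pairs rho had a median of 0.882 across 35 libraries (0.677 to 0.941), and within organs medians of 0.624 (pancreas), 0.782 (liver) and 0.754 (lungs). Within the pancreas rho of *Bgn* with the other 6 ran from -0.321 (*Aspn*) to 0.236 (*Dcn*). Across 35 libraries *Vcan* had a median rho of 0.582 with the 7 small leucine-rich genes, *Hspg2* 0.425 and *Agrn* 0.0395. Within the pancreas, liver and lungs the medians were 0.552, 0.136 and 0.692 for *Vcan* and -0.0788, 0.0545 and 0.297 for *Hspg2*. For *Agrn* they were 0.164, 0.264 and 0.319. Of 12942 genes with a median of at least 1 CPM, the most like *Dcn* were *Postn*, *Itgbl1* and *Mmp2* (rho 0.956, 0.948 and 0.941 over 35 libraries). For *Bgn* they were *Col8a1*, *Serpinf1* and *Ddr2* (0.975, 0.961 and 0.952) and for *Lum* *Nkd2*, *Col28a1* and *Itgbl1* (0.970, 0.961 and 0.960). *Aspn* was nearest to *Mmp2*, *Postn* and *Sertad4* (0.960, 0.951 and 0.945), *Fmod* to *Sec16b*, *Aspn* and *Col28a1* (0.946, 0.936 and 0.930), *Ogn* to *Colec12*, *Islr* and *Ecm2* (0.927, 0.922 and 0.920) and *Prelp* to *Slc7a2*, *Nrp1* and *Mfap5* (0.917, 0.912 and 0.907). *Hspg2* was nearest to *Notch2*, *Soga1* and *Prickle1* (0.938 for each), *Agrn* to *Rxra*, *Znfx1* and *Mogs* (0.803, 0.794 and 0.786) and *Vcan* to *Zfp862-ps*, *Sec24d* and *Dkk3* (0.845, 0.820 and 0.814).

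The second question was how the core protein mRNAs differ between *Smad4* labels within an organ. In the pancreas on day 14, *Fmod* and *Ogn* were higher in the libraries labelled on, 2 of 10 members where 4.64% of all genes were called. *Fmod* stood at 39.1 and 39.6 CPM in the 2 libraries labelled off and at 86.1, 150 and 98.3 CPM in the 3 labelled on. *Ogn* stood at 22.9 and 25.3 CPM against 43.6, 60.6 and 66.1 CPM. Every library labelled on lay above both labelled off for these genes, and the share of all genes that do so is not given here. Their log2 fold changes were 1.40 (SE 0.26, adjusted P = 0.0252 by edgeR) and 1.14 (SE 0.18, 0.00807). Leaving out either library labelled off ended both calls (adjusted P = 0.0868 to 0.183), without a change of direction, and *Ogn* was under 2-fold with the replicate number as a block (0.99, adjusted P = 0.0149). A single fit of all 12 groups, which shares their wider spread, called 0 members (0.0912% of all genes), and without replicate 1 labelled on *Lum* (1.02) and *Aspn* (1.47) were called as well (6.75% of all genes).

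In the same comparison *Hspg2* and *Bgn* went the other way. *Hspg2* stood at 1095 and 1202 CPM in the libraries labelled off and at 647, 711 and 855 CPM in those labelled on. Its log2 fold change of -0.73 (SE 0.12, adjusted P = 0.00813 by edgeR) passes the P threshold but not 2-fold. *Bgn* stood at 5106 and 4792 against 2402, 3278 and 4086 CPM (-0.70, SE 0.21, adjusted P = 0.0794). *Aspn* was at 16.9 and 17.7 against 24.9, 44.0 and 59.6 CPM (1.21, SE 0.38, adjusted P = 0.115). DESeq2 called 3 members, *Fmod*, *Ogn* and *Aspn* (1.20, adjusted P = 0.00174), where it called 5.85% of all genes. *Prelp* (0.50), *Lum* (0.76), *Vcan* (0.62) and *Dcn* (0.32) had values above 0 that did not pass, and *Agrn* was at 0.00. The fibroblast sum was 11251 and 11497 CPM with the label off and 8589 to 17401 CPM with the label on, and its part was not tested. The median over the members was 0.56, beside 0.02 over all genes.

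In the pancreas on day 7, edgeR called 0 of 10 members where 1.33% of all genes were called. An unadjusted P value under 0.05 was found for 3 members, and for 1711 genes higher and 1629 lower of 14439 tested. *Lum* stood at 108, 365 and 196 CPM in the libraries labelled off and at 906 and 905 CPM in those labelled on (log2 fold change 1.99, SE 0.51, adjusted P = 0.107). *Vcan* stood at 20.5, 20.7 and 21.2 against 104 and 36.6 CPM (1.74, SE 0.43, adjusted P = 0.102). *Dcn* stood at 421, 441 and 154 against 734 and 788 CPM (1.14, SE 0.45, adjusted P = 0.211). For these 3 genes both libraries labelled on lay above all those labelled off, and the share of all genes that do so is not given here. DESeq2 called 2 members, *Lum* (1.98, adjusted P = 0.028) and *Vcan* (1.74, adjusted P = 0.000368), where it called 3.58% of all genes. With edgeR 1 member was called without replicate 1 labelled off (*Aspn*, 1.66), without replicate 2 labelled off (*Lum*, 2.56) or without replicate 2 labelled on (*Vcan*, 2.31), where 1.14%, 1% and 0.414% of all genes were called. *Ogn* reached 127 CPM in 1 library labelled off, above both libraries labelled on. The fibroblast sum was 10675 to 16926 CPM with the label off and 22753 and 23287 CPM with the label on, and 3 of 11 tested fibroblast markers were higher. Its part was not tested.

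In the liver on day 7 edgeR called 0 of 10 members (0.444% of all genes). An unadjusted P value under 0.05 was found for 2 members, and for 2217 genes higher and 2123 lower of 16007 tested. DESeq2 called 3, *Vcan*, *Hspg2* and *Bgn*, where it called 17.8% of all genes. The 2 libraries labelled off differed widely. *Bgn* stood at 53.3 CPM in replicate 1 and 4303 CPM in the paired-end replicate 2, against 307, 274 and 132 CPM in the libraries labelled on. *Lum* stood at 4.06 and 352 against 39.0, 55.1 and 14.4 CPM, and *Ogn* at 0.275 and 42.4 against 17.2, 15.7 and 7.41 CPM. The libraries labelled on lay between both labelled off for 7 of the 10 members, and the share of all genes for which this holds is not given here. The log2 fold changes were accordingly wide, -3.47 (SE 1.54) for *Bgn* and -5.81 (SE 1.62, adjusted P = 0.103) for *Vcan*. Without the paired-end library 3 members were called higher with the label on, *Ogn* at 5.52 (adjusted P = 0.0314), *Fmod* at 4.49 (0.0261) and *Prelp* at 2.83 (0.0275), and 7 of 10 members changed sign, where 4.98% of all genes were called. Without replicate 1, 9 of 10 were called lower, where 19.8% of all genes were called. Each of these fits keeps a single library labelled off, whose spread is assumed to be that of the libraries labelled on.

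In the liver on day 14, edgeR called 0 of 10 members and 0% of all genes, no member had an unadjusted P value under 0.05, and DESeq2 called 0 members and 2.22% of all genes. *Fmod* stood at 0.526, 7.03 and 19.4 CPM with the label off and 11.5, 4.44 and 66.8 CPM with the label on (1.63, SE 1.31). *Bgn* stood at 121, 1829 and 194 against 88.7, 108 and 465 CPM (-1.69, SE 1.14). The groups overlapped for both genes. Replicate 1 labelled off held the lowest *Prelp* (0.692 CPM), *Ogn* (0.083 CPM) and *Agrn* (248 CPM) of all 35 libraries, beside 68.4 CPM of *Vcan*. *Hspg2* was at 421, 668 and 640 against 337, 575 and 393 CPM (-0.46, SE 0.27).

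In the lungs no member was called on either day. On day 7 edgeR called 0 of 10 members and 0% of all genes, and DESeq2 called 0 members and 0.658% of all genes. An unadjusted P value under 0.05 was found for 1 member, and for 366 genes higher and 427 lower of 15193 tested. That member was *Lum*, at 16.6, 8.34, 8.46 and 1.63 CPM with the label off and 1.77 and 0.82 CPM with the label on (-2.64, SE 0.86, adjusted P = 0.894). On day 14 edgeR called 0 of the 9 members that passed the filter on low counts (0.0271% of all genes). An unadjusted P value under 0.05 was found for 1 member, and for 763 genes higher and 722 lower of 14751 tested. DESeq2 called 0 members and 1.34% of all genes. *Aspn*, at 0.157 to 0.496 CPM with the label off and 0.177 to 1.02 CPM with the label on, did not pass the filter. *Lum* stood at 1.57, 0.838, 0.275 and 3.08 against 12.3, 3.18, 2.07 and 4.24 CPM (1.86, SE 0.77, adjusted P = 0.466), and *Prelp* at 24.4, 44.6, 11.3 and 20.8 against 43.7, 63.8, 28.1 and 33.1 CPM (0.71, SE 0.37). With the replicate number as a block *Prelp* had an adjusted P value of 0.0383 at 0.785, under 2-fold, so the block made no call.

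**Figure D4:**
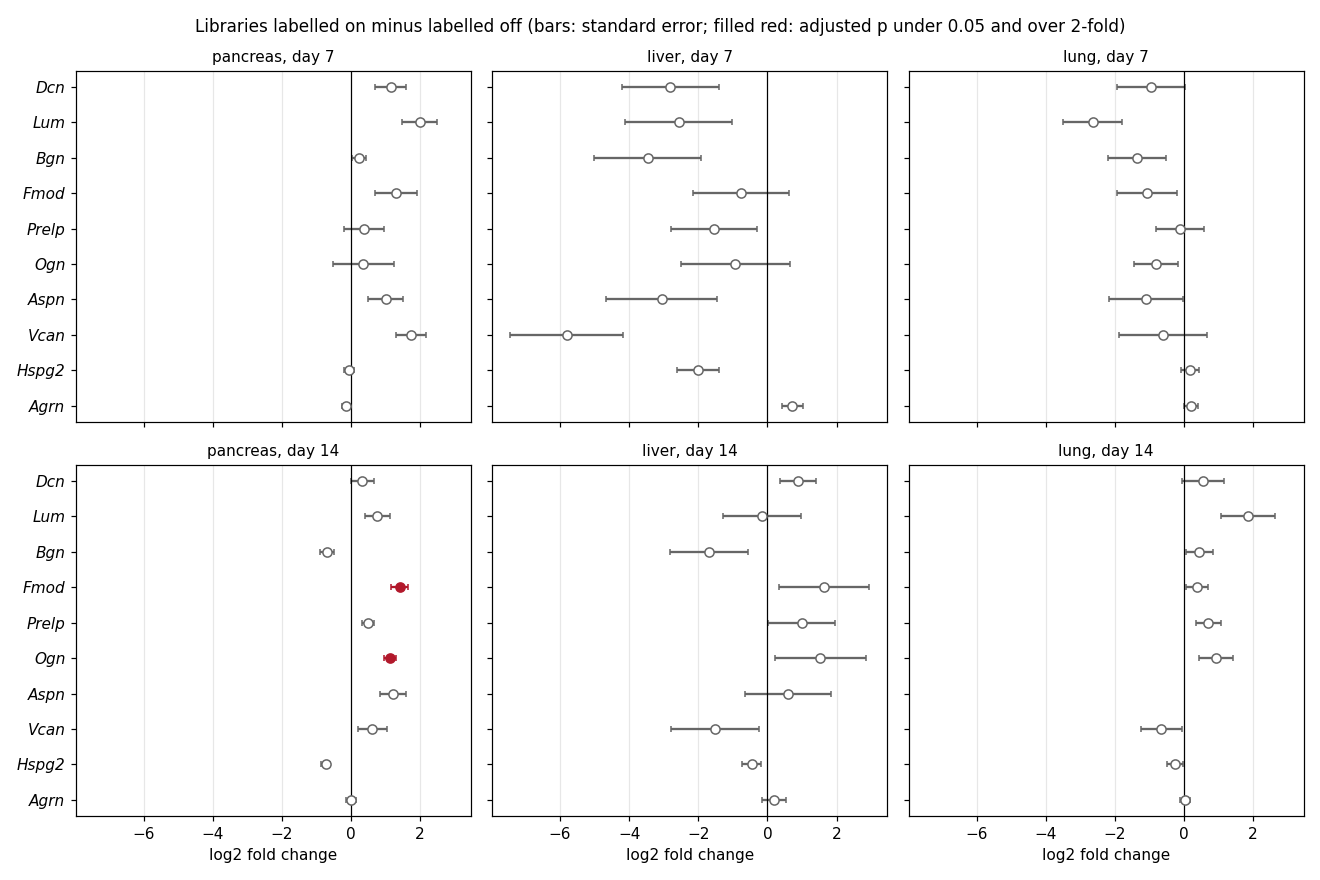
Log2 fold changes of the 10 genes between libraries labelled on and off, by organ (columns) and day (rows), with standard errors, filled red where the gene was called. The 2 called genes are *Fmod* (1.40) and *Ogn* (1.14) in the pancreas on day 14, and the liver values of day 7 include the paired-end library.

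The difference between the liver and lung responses was tested as the interaction of organ and label. On day 7, edgeR called 0 of 10 members where 1.86% of all genes were called. An unadjusted P value under 0.05 was found for 2 members, and for 1917 genes higher and 1533 lower of 16369 tested. DESeq2 called 1 member, where it called 11.5% of all genes. Without liver replicate 1 labelled off edgeR called 2, where 13% of all genes were called. On day 14 edgeR called 0 of 10 members and 0% of all genes, no member had an unadjusted P value under 0.05 and DESeq2 called 0 members and 0.0252% of all genes. The median difference over the members was -1.57 on day 7, with the paired-end library included, and -0.01 on day 14.

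Other genes of the pathway were counted in 5 lists, to be read beside the shares of all genes given above for the same organ comparisons. Of 21 other matrix proteoglycans, 8 of 15 tested were lower in the lungs than in the pancreas with the label off and 10 with the label on, 9 were lower in the liver with the label on and 3 with the label off (8 without the paired-end library), and 1 was higher in the lungs with the label off. They included *Col15a1*, a basement membrane collagen that carries chondroitin sulfate (-4.12 and -4.25 in the lungs, -3.65 in the liver labelled on), and the leucine-rich *Podn* (-3.94 in the lungs and -4.60 in the liver, both labelled on). *Omd*, between *Aspn* and *Ogn* on chromosome 13, was higher in the liver than in the lungs with both labels (2.07 and 2.23), though without the paired-end library the value labelled off was 1.19 (adjusted P = 0.172 by edgeR). Of 16 cell surface and granule proteoglycans, 6 of 13 tested were lower in the lungs with the label off and 5 with the label on, among them *Sdc2*, a syndecan (-3.52 and -3.90), and 1 was higher with each label. The 7 enzymes that build the linkage region, from which the glycosaminoglycan chain grows, were nearly level, summing to 218 to 254 CPM in pancreas libraries, 185 to 245 CPM in liver libraries and 202 to 260 CPM in lung libraries. Of them *Xylt1*, which starts the chain, was higher in the liver and lungs with the label on (1.56 and 1.73), calls that ended in 5 of 17 fits that left out 1 library in each organ (adjusted P up to 0.104 and 0.107 by edgeR). *Pxylp1*, a xylose phosphatase, was lower in the lungs with the label off by just over 2-fold (adjusted P = 0.00217 by edgeR), and stood at -1.06 to -0.90 with 1 library left out, under 2-fold in 12 of 18 such fits.

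Of 16 partners and receptors, 7 of 13 tested were lower in the lungs and 6 in the liver than in the pancreas with the label on, and 1 was higher in the liver. With the label off 4 were lower in the lungs and 0 in the liver (6 without the paired-end library). Those lower with the label on included *Fbln1*, a fibulin that binds versican and basement membranes (-3.66 and -4.36), and the microfibril protein *Fbn1* (-3.64 and -4.63). Of 10 proteases that cleave these core proteins, 9 were tested, and with the label on 4 were lower and 2 higher in the lungs, and 6 were lower and 1 higher in the liver. With the label off 5 were lower and 1 higher in the lungs, and 2 were lower in the liver (6 without the paired-end library). Those lower with the label on included the aggrecanases *Adamts4* (-3.72 in the lungs, -3.69 in the liver) and *Adamts5* (-4.61 in the lungs), and *Adamts15* was higher in the lungs (2.16).

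Between labels these lists held calls only in the pancreas, by the counts of edgeR. On day 7, *Nid2*, a nidogen that links laminin to collagen IV and perlecan (2.90), *Fbln1* (2.32), *Tgfbr3*, the TGFβ co-receptor betaglycan (1.30), and the small leucine-rich *Podn* (2.02) and *Epyc* (5.11) were higher with the label on, and *Fbln2* was lower (-1.15). Leaving out 1 library ended the call of *Epyc* in 5 of 5 fits (adjusted P = 0.079 to 0.196 by edgeR), of *Podn* and *Fbln2* in 4 of 5 and of *Fbln1* in 1 of 5. *Epyc* was at 0 counts in 22 of the 35 libraries, with a pancreas median of 0.129 CPM. On day 14 *Nid2* (2.23), *Fbln1* (1.39) and *Spock3* (1.94) were higher, and *Fbln2* (-1.43), *Spock2* (-1.21), the serine protease *Prss12* (-2.03) and *Bmp1*, which processes biglycan and fibrillar procollagens (-1.26), were lower. Leaving out 1 library ended the calls of *Fbln1* and *Spock2* in 4 of 5 fits each (adjusted P up to 0.232 and 0.274 by edgeR) and of *Nid2* and *Spock3* in 2 of 5 each. In the single fit of all 12 groups none of these genes was called between labels in the pancreas on either day. In the liver and lungs 0 genes of these 5 lists were called by edgeR on either day, but without the paired-end library 4 of the lists held 1 or 2 genes higher and 1 to 3 lower in the liver on day 7. In the interaction of day 7, *Fbln2* (-3.10) and *Col18a1* (-1.94) differed lower in the liver and *Adamts15* (4.36) higher. These calls ended in 10, 9 and 8 of 11 fits that left out 1 library (adjusted P up to 0.134, 0.145 and 0.134 by edgeR), among them the fit without the paired-end library (-2.32, -1.84 and 3.74). No difference of these list calls between organs was tested otherwise.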

How the data were processed

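Poly(A) RNA-seq counts of mKate2-sorted cells were analysed in 35 libraries. The counts were deposited by the authors as whole numbers of reads per gene, not normalized, made with Trimmomatic 0.36, STAR 2.5.3a and featureCounts 1.6.3 on GRCm38 per the submitters' notes. Of the count table's columns, 0 belonged to samples without a label. The authors' transcript lengths served only for levels per kilobase.

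Members were read by gene name. CPM is counts over the library total, log2 CPM used a pseudocount of 0.5, and correlations are descriptions. Each organ and day was fitted on its own, organs within each label with day as a covariate, and the liver and lung responses by an interaction, all with filterByExpr (minimum count 10, total 15), TMM and edgeR 4.0.16 in R 4.3.3, adjusted over all genes tested. Calls needed an adjusted P value under 0.05 together with a change of more than 2-fold. The fits were tested on simulated data. Members and lists were chosen with earlier results of these data known. All members are described, and of other lists up to 3 called genes per comparison by lowest adjusted P value. Alternatives were DESeq2 1.42.0, its size factors, other filters, a block for the replicate number, 1 fit of all 12 groups, each library left out in turn and, as a choice made after seeing the data, a term that marks the 10 libraries in which *mt-Co3* had counts. In the lungs on day 14 all 4 same-numbered pairs deviated together (r = 0.581 to 0.68). For number 1 and number 2 a library with another number correlated more closely (0.669 against 0.581, and 0.672 against 0.600). These correlations therefore do not show whether the replicate number pairs libraries. Pairing comes from the labels' mouse numbers only, and the block fits kept only libraries whose number occurs under both labels of the organ and day.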

Additional observations from a re-analysis of the deposited data

How the results depend on the processing

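Beside leaving out libraries, the count of members called was recomputed 90 times and stayed within 1.5 times its value in 77. With DESeq2 it became 2 in the pancreas and 3 in the liver on day 7 (both 0), and 1 in the interaction of day 7 (0). In these comparisons DESeq2 called 3.58%, 17.8% and 11.5% of all genes. The replicate block gave 1 in the pancreas on day 14 (2), where it called 3.69% of all genes, and changed no other count. The single fit of 12 groups gave 0 in the pancreas of day 14 (0.0912% of all genes) and 4 for the liver of day 7 (17.6%). It gave 2 for liver against pancreas labelled off (9.52%), 3 for liver against lungs labelled on (10.9%) and 2 in the interaction of day 7 (11.6%). Without a filter liver against pancreas labelled off had 0 (3.52% of all genes). A filter of at least 10 counts in every library, which tests fewer members, gave 4 for lungs against pancreas labelled off (13.3% of all genes). It gave 2 for liver against lungs labelled off (2.03%) and 3 for liver against lungs labelled on (7.77%). Whether the replicate numbers pair libraries could not be decided. Same-numbered deviations correlated at -0.22 and -0.11 in the pancreas and at -0.37 and 0.37 in the liver on day 7. They correlated at 0.41 and -0.36 in the lungs on day 7, and at 0.059, 0.046 and 0.48 in the liver on day 14. Where a label holds 2 libraries their deviations are equal and opposite, which limits this comparison.

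Leaving out each library in turn gave counts of 0 to 1 and 0 to 4 in the pancreas on days 7 and 14, and 0 to 9 in the liver on day 7. Labelled off, they were 0 to 7 for liver against pancreas and 0 to 5 for liver against lungs. For liver against lungs labelled on they were 3 to 6, and in the interaction of day 7 0 to 2. The interaction of day 14, the liver on day 14 and the lungs on both days kept 0. The cause was not tested, and fits that keep a single library of a group assume that it varies like the others.

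Some log2 fold changes that had not been called changed sign. With the replicate block, which also dropped libraries without a same-numbered partner, this held for *Prelp* in the pancreas on day 7 (-0.0128) and *Dcn* on day 14 (-0.00492). The same held in the liver for *Ogn* (1.83), *Fmod* (1.32), *Prelp* (0.22) and *Lum* (0.0808) on day 7, and for *Aspn* (-0.00109), *Vcan* (0.16) and *Lum* (0.36) on day 14. With the filter of 10 counts *Agrn* in the pancreas on day 14 was at 0.00249. With the covariate for *mt-Co3* libraries, added after seeing the data, *Ogn* (1.38), *Fmod* (1.43) and *Prelp* (0.25) in the liver on day 7, *Aspn* (-0.72) in the liver on day 14, *Prelp* (-0.35) for liver against lungs labelled off and *Agrn* (-0.0101) for lungs against pancreas labelled on changed sign.

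With 1 library left out, values in the pancreas on day 7 ranged from -0.20 to 1.53 for *Ogn*, -0.22 to 0.058 for *Hspg2*, -0.0612 to 0.47 for *Bgn* and -0.25 to 0.91 for *Prelp*, and on day 14 from -0.15 to 0.11 for *Agrn*. In the liver on day 7 they ranged from -3.75 to 2.12 for *Dcn*, -4.01 to 3.11 for *Aspn*, -1.90 to 5.52 for *Ogn*, -4.42 to 2.09 for *Bgn*, -3.52 to 3.08 for *Lum*, -1.71 to 4.49 for *Fmod* and -2.46 to 2.83 for *Prelp*. On day 14 they ranged from -1.91 to 1.45 for *Aspn*, -0.0881 to 3.11 for *Ogn*, -2.15 to 1.37 for *Vcan*, -2.89 to 0.42 for *Bgn*, -1.67 to 1.58 for *Lum*, -0.20 to 2.87 for *Fmod* and -0.0918 to 0.57 for *Agrn*. In the lungs they ranged from -3.91 to 0.32 for *Vcan*, -0.19 to 0.45 for *Hspg2* and -2.28 to 0.73 for *Prelp* on day 7, and from -0.0523 to 0.12 for *Agrn* on day 14. Labelled off, *Vcan* ranged from -0.47 to 0.00606 for lungs against pancreas, and for liver against lungs *Ogn* from -0.38 to 2.06, *Hspg2* from -0.37 to 0.43 and *Prelp* from -1.47 to 0.54. At this depth *Aspn* and *Ogn*, at 3 counts in their lowest libraries, are the least precisely measured members.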
